A study of Mus musculus with 12 samples.

Results

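Cytosolic ribosomal protein genes were followed across 12 expression arrays of mouse striatum (a basal forebrain structure rich in dopamine terminals and opioid receptors). A gene was taken as a member where its probe sets carried a single symbol made of Rpl or Rps, digits and at most 1 further letter, or were named Rplp0, Rplp1, Rplp2 or Rpsa. Kinase genes of the Rps6k family and symbols ending in -ps were not taken. However, 1 symbol that the rule takes, Rps4l, is a transcribed pseudogene in RefSeq. The rule found 59 members among 19935 genes, 37 of the large ribosomal subunit and 22 of the small subunit, measured by 214 of 21780 probe sets with a single symbol. Each member was given the mean of its probe sets: 20 members had 1 probe set and 39 had more, up to 13 for Rpl23a and Rps12.

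The animals were male Swiss-Albino mice aged 2 months. In the butyrate-morphine group (3 arrays) sodium butyrate at 300 mg/kg, an inhibitor of histone deacetylases, was injected just before morphine at 20 mg/kg on each of 6 induction trials held on alternate days. The morphine group (3 arrays) received saline and then morphine at 20 mg/kg on the same trials, and the saline group (6 arrays) received vehicle alone. A challenge followed 7 days after the last trial, and striatal RNA was taken 1 h after it. The labels disagree on the challenge of the saline group: saline according to its source names, morphine as for every other animal according to the protocol text. Whether the challenge itself enters a difference from saline is thus unsettled. Each array, an Affymetrix Mouse Gene 1.0 ST chip, received equal amounts of RNA from 4 animals. The labels call the arrays biological replicates, but the sources used here do not say if pools came from separate cohorts, and the p-values reflect only how much pools varied. No group received butyrate without morphine, so a difference of the butyrate-morphine group from saline cannot be assigned to either drug.

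The cytosolic ribosome reads messenger RNA into protein. Its large subunit forms peptide bonds, its small subunit decodes the message, and each ribosomal protein normally enters a ribosome as 1 copy, apart from the paired proteins of the acidic stalk. Ribosomal protein mRNAs typically begin with a run of pyrimidines, the terminal oligopyrimidine (TOP) tract, through which the mTOR kinase controls how much of them is translated. In neurons, phosphorylation of the ribosomal protein encoded by Rps6 is widely used as a mark of recent activity. The arrays measured RNA and hold no measure of translation or of phosphorylation.

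The authors deposited centred log values, with a log base that was inferred to be 2 and is not stated. The saline arrays mirror each other in pairs (1 with 2, 3 with 4, 5 with 6) to within 1e-06 in each row. The saline mean and median are therefore 0 throughout, and these 6 arrays carry 3 independent values per gene. Each saline pair is thus centred on its own mean, which removes differences between pairs and narrows every saline range given below. Every value that follows is read as a log2 difference from the saline mean of 0, and levels of different genes cannot be compared. The rounding of the values shows a coarse brightness class: 195 of the 214 member probe sets (91.1%) were stored at 8 to 16 before centring, against 25.9% of all probe sets. In this bulk tissue, fewer cells of a type and less RNA per cell cannot be told apart.

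Butyrate-morphine was compared with saline first. Of the 59 members, 3 were lower at an adjusted p under 0.05 and none was higher. Of all genes 2.48% were called, 0.637% lower and 1.85% higher. The 3 were Rpl41, which encodes a very short basic peptide of the large subunit, Rpl13, which encodes another large-subunit protein, and Rpsa, which encodes a small-subunit protein also known as a laminin receptor. On a linear scale Rpl13 fell by 17.9%, Rpl41 fell by 17.8% and Rpsa fell by 12.8%.

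Rpl41 (Entrez 67945, chromosome 10) stood at -0.24, -0.46 and -0.14 in the butyrate-morphine arrays and at -0.046, -0.16 and -0.26 in the morphine arrays, and the saline arrays lay between -0.067 and 0.067. All 3 butyrate-morphine arrays lay below every saline array, while 1 morphine array lay inside the saline range. Rpl41 fell to 0.822 of the saline level with butyrate-morphine (-0.28, SE 0.064, adjusted p = 0.037). Rpl13 (Entrez 270106, chromosome 8) stood at -0.32, -0.33 and -0.20 in the butyrate-morphine arrays and at -0.056, -0.055 and -0.33 in the morphine arrays, and the saline arrays lay between -0.12 and 0.12. In the morphine group a single array carried most of the Rpl13 difference, and the other 2 lay within the saline range. Rpl13 fell to 0.821 of the saline level (-0.28, SE 0.064, adjusted p = 0.0373). Rpsa (Entrez 16785, chromosome 9) stood at -0.25, -0.20 and -0.14 in the butyrate-morphine arrays and at -0.024, -0.093 and -0.20 in the morphine arrays, and the saline arrays lay between -0.094 and 0.094. Its butyrate-morphine arrays did not overlap the saline arrays, and it fell to 0.872 of the saline level (-0.20, SE 0.047, adjusted p = 0.0483).

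These 3 calls rest close to the threshold. None of the 3 was called with quantile normalization, with a trended and robust variance, or with each mirrored pair of saline arrays counted once. Of the 59 members, 0 were called without butyrate-morphine array 1 or 2 or without saline array 1, 4, 5 or 6. Only Rpl41 was called without saline array 3, and 5 members were called without morphine array 1, which enters this comparison only through the shared spread. The share of all genes called in those fits is not given here.

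**Figure D1:**
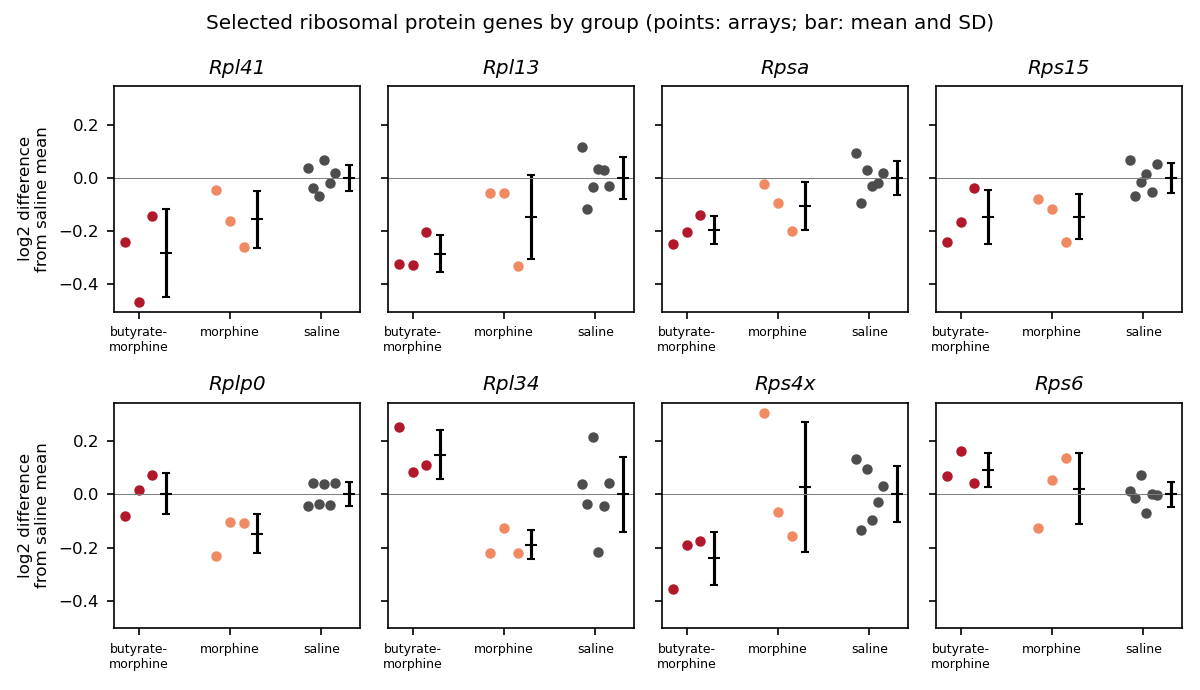
Log2 differences from the saline mean (vertical axis) for 8 ribosomal protein genes in the 3 butyrate-morphine, 3 morphine and 6 saline arrays. Points are arrays, and the black bar beside each group is its mean and SD. The butyrate-morphine points of Rpl41, Rpl13 and Rpsa lie below all saline points, Rpl34 separates butyrate-morphine from morphine, and the Rps6 groups overlap.

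The mouse promoter table of RefSeq (GRCm38.p6) shows where the pyrimidine runs lie at the annotated starts of these genes, and the windows below are given for the 3 called genes and for 5 members that describe the other patterns. Each is 30 bases of the coding strand, 5′ to 3′, with the longest run of C and T between 50 bases before and 50 bases after the annotated start in capitals.
Rpl41, chr10:128549119-128549148, minus strand: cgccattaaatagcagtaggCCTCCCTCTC
Rpl13, chr8:123102324-123102353, plus strand: cgtgacgtcaCTTCCCTTTCgcctgatttt
Rpsa, chr9:120127704-120127733, plus strand: gcggaagttctcCCTTTTTgcttagcctgc
Rps15, chr10:80292446-80292475, plus strand: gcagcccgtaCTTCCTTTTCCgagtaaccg
Rpl36a, chrX:134585672-134585701, plus strand: cggctctagCCTCTCTCTTTCCgagctgct
Rpl34, chr3:130730330-130730359, minus strand: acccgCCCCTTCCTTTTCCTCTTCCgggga
Rps4x, chrX:102189342-102189371, minus strand: cgcgcagcctccgaccctaaTTTCTTCgtt
Rps6, chr4:86857349-86857378, minus strand: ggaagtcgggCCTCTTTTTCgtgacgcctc
Within that window the run was 10 bases long in Rpl41, in Rpl13 and in Rps6, and 7 bases in Rpsa and in Rps4x. Rpl34 held the longest of these 8 runs, at 20 bases. In Rpl41 the run reaches the end of the searched window and in Rpsa its beginning, so both lengths are of the part inside it. In Rpsa the lower-case letters just before the capitals are pyrimidines too, so the whole run is longer. In Rps6 the run begins at the base before the annotated start, in Rpl13 it begins 16 bases before the start, and in Rps15 it begins at base 26 of the transcript.

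Of the 59 members, 47 were in the promoter table. A run of at least 8 pyrimidines lay within 50 bases of the annotated start in 38 of them (80.9%), against 39.3% of 27025 genes. The median longest run was 10 bases in the members and 7 bases in all genes. The ETS core CGGAAGT, searched on both strands of the 300 bases around the start, was present in 17 members (36.2%), against 7.2% of genes. Called and uncalled members both held such runs: Rps6, with 10 pyrimidines, did not pass the test in any comparison. A match is a description of these letters and not evidence of a working site.

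Other members also stood lower with butyrate-morphine without passing the adjusted threshold. Without adjustment, 17 members had p under 0.05 (28.8%, against 17% of all genes), 15 of them lower (25.4%, against 6.44% of all genes) and 2 higher (3.39%, against 10.5% of all genes). Rpl36a, an X-linked large-subunit gene, stood at -0.25, -0.18 and -0.16 in the butyrate-morphine arrays and between -0.089 and 0.089 in the saline arrays (difference -0.20, SE 0.049, adjusted p = 0.0539). Rpl7, a large-subunit gene, stood at -0.26, -0.25 and -0.28 in the butyrate-morphine arrays and between -0.13 and 0.13 in the saline arrays (difference -0.26, adjusted p = 0.0606). Both genes thus had butyrate-morphine arrays wholly below the saline arrays. The next lowest p-values belonged to Rpl9 (-0.15, adjusted p = 0.101), Rpl36 (-0.20, adjusted p = 0.115), Rps29 (-0.23, adjusted p = 0.119) and Rpl23 (-0.11, adjusted p = 0.128). In the other direction, the row annotated Rpl32l stood at 0.49, 0.19 and 0.14 in the butyrate-morphine arrays and between -0.18 and 0.18 in the saline arrays (difference 0.27, adjusted p = 0.142).

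Over the whole list, butyrate-morphine differences from saline ran from -0.28 to 0.27 with a median of -0.034, and the median of all genes was 0.0063. The difference was negative in 41 of 59 members (69.5%), against 46.4% of all genes. In 10 members (16.9%) every butyrate-morphine array lay below every saline array, against 4.55% of all genes: Rpl7, Rpl9, Rpl13, Rpl23, Rpl36a, Rpl41, Rplp2, Rps29, Rps4x and Rpsa. In 1 member (1.69%), Rps18, every butyrate-morphine array lay above every saline array, against 7.1% of all genes. Rps18 stood at 0.11, 0.13 and 0.14 in the butyrate-morphine arrays and between -0.011 and 0.011 in the saline arrays, and its difference of 0.13 did not pass the test (adjusted p = 0.437).

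Morphine without butyrate was compared with saline next. No member was called in either direction by limma, against 2.66% of all genes (1.29% lower and 1.37% higher). Without adjustment 12 members had p under 0.05 (20.3%, against 15.5% of all genes), all of them lower, beside 8.73% of all genes lower and 6.81% higher. Rplp0, which encodes the anchor of the acidic stalk that recruits translation factors, had the lowest p. It stood at -0.23, -0.10 and -0.11 in the morphine arrays and between -0.045 and 0.045 in the saline arrays (difference -0.15, SE 0.044, adjusted p = 0.0975). All 3 morphine arrays of Rplp0 lay below the saline arrays, while its butyrate-morphine arrays, at -0.080, 0.017 and 0.071, lay on both sides of 0.

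Rps15, a small-subunit gene, stood at -0.079, -0.12 and -0.24 in the morphine arrays and between -0.069 and 0.069 in the saline arrays (difference -0.15, adjusted p = 0.161). Rps13, also of the small subunit, stood at -0.21, -0.082 and -0.051 in the morphine arrays and between -0.042 and 0.042 in the saline arrays (difference -0.11, adjusted p = 0.133). Rpl38, whose loss alters translation of Hox mRNAs in mouse embryos, stood at -0.46, -0.12 and -0.076 in the morphine arrays and between -0.064 and 0.064 in the saline arrays (difference -0.22, adjusted p = 0.139). These 3 genes, Rplp0 and Rps2 were the 5 members (8.47%) whose morphine arrays all lay below all saline arrays, against 4.35% of all genes. No member had all morphine arrays above all saline arrays, against 3.84% of all genes. The difference was negative in 43 members (72.9%), against 52.2% of all genes, with a median of -0.049 in the members and -0.0036 in all genes.

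Morphine array 1 held many of the extreme member values. Besides Rpl38 at -0.46, it had Rps18 at -0.39, Rps21 at -0.35, Rpl10 at -0.34, Rps10 at -0.32 and Rps20 at -0.31, and at the other end Rps4x at 0.31 and Rpl37a at 0.28. In morphine arrays 2 and 3 the same genes lay nearer to 0, with Rps4x at -0.065 and -0.16. Without morphine array 1 the median of the members was -0.019 in place of -0.049.

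**Figure D2:**
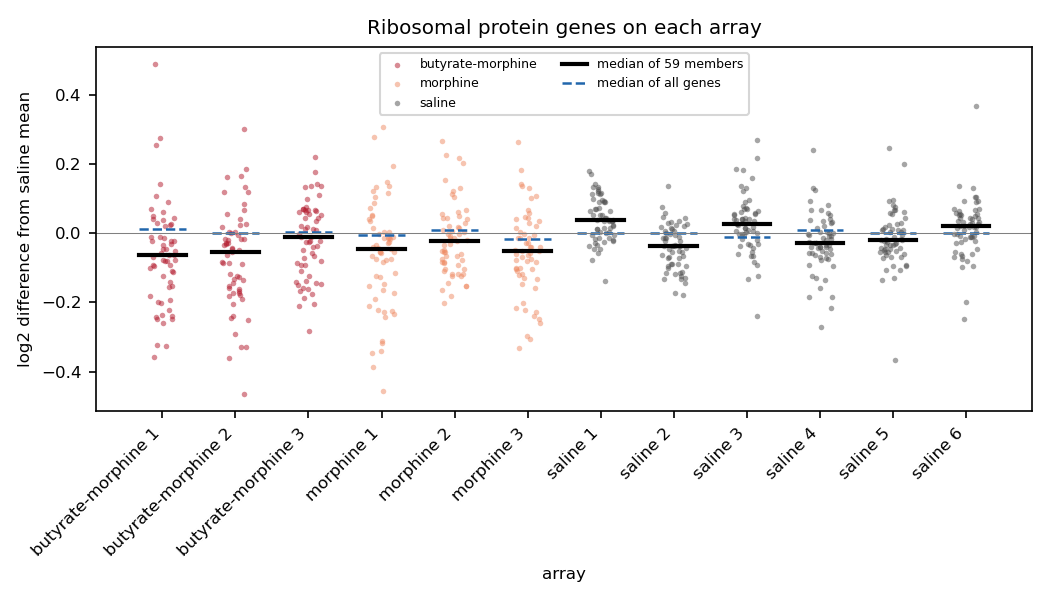
Log2 differences from the saline mean (vertical axis) of the 59 ribosomal protein genes on each of the 12 arrays (horizontal axis). Black bars are the medians of the 59 genes and dashed blue bars the medians of all genes. The black bar lies below the blue bar on all 6 butyrate-morphine and morphine arrays, by the least on butyrate-morphine array 3, and on 3 of the 6 saline arrays.

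The medians of the members on single arrays show the size of the common shift beside the spread of the saline arrays. They were -0.063, -0.053 and -0.011 on the butyrate-morphine arrays (mean -0.042 ± 0.028, SD, n = 3). They were -0.046, -0.023 and -0.053 on the morphine arrays (mean -0.040 ± 0.016, SD, n = 3), and ran from -0.037 to 0.037 on the saline arrays. Butyrate-morphine array 3 and morphine array 2 lay inside the saline range, so the groups overlapped. The other butyrate-morphine and morphine arrays lay below that range. Between 32 and 43 of the 59 members were below 0 on the butyrate-morphine arrays, between 36 and 42 on the morphine arrays and between 17 and 42 on the saline arrays. The members also differed more among themselves on the non-saline arrays: their SD within an array was 0.11 to 0.15 with butyrate-morphine, 0.10 to 0.16 with morphine and 0.064 to 0.085 with saline. The SD of all genes likewise was 0.11 to 0.15 on the 6 non-saline arrays and 0.050 to 0.083 on the saline arrays. Centring each mirrored saline pair on its own mean narrows the saline SD in every gene. A wider spread on the non-saline arrays can therefore not be read as a result of treatment.

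Butyrate-morphine was then compared with morphine. No member was called, and neither was any other gene (0% of genes called by limma). Without adjustment 10 members had p under 0.05 (16.9%, against 8.62% of all genes). Of these, 5 were higher and 5 lower (8.47% each), against 6.36% of all genes higher and 2.26% lower. Rpl34, a large-subunit gene with a single probe set of the dimmer class, stood at 0.26, 0.085 and 0.11 in the butyrate-morphine arrays and at -0.22, -0.12 and -0.22 in the morphine arrays (difference 0.34, SE 0.085, adjusted p = 0.281). It was the 1 member with all butyrate-morphine arrays above 0 and all morphine arrays below 0. Its saline arrays ran from -0.22 to 0.22, the lowest of them close to morphine arrays 1 and 3 and below morphine array 2. Rplp0 was 0.15 higher with butyrate-morphine than with morphine (adjusted p = 0.417).

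Rps4x, the X-linked small-subunit gene, stood at -0.36, -0.19 and -0.18 in the butyrate-morphine arrays and at 0.31, -0.065 and -0.16 in the morphine arrays (difference -0.27, adjusted p = 0.495). Rpl37a, also a single probe set, differed by -0.25 (adjusted p = 0.468), Rpl36a by -0.15 (adjusted p = 0.477) and Rpl9 by -0.14 (adjusted p = 0.485). In 5 members (8.47%, against 2.99% of all genes) every butyrate-morphine array lay below every morphine array, and in 4 members (6.78%, against 7.75% of all genes) every one lay above. The 5 lower were Rpl7, Rpl9, Rpl36a, Rpl37a and Rps4x, and the 4 higher were Rpl3l, Rpl34, Rplp0 and Rps13. The list as a whole was split evenly, with 30 of 59 differences negative (50.8%, against 43.1% of all genes) and a median of -0.0021, beside 0.011 for all genes. For the genes called with butyrate-morphine against saline, this direct comparison gave -0.13 for Rpl41 (SE 0.074, adjusted p = 0.676), -0.14 for Rpl13 (SE 0.074, adjusted p = 0.642) and -0.091 for Rpsa (SE 0.055, adjusted p = 0.69). A larger fall with butyrate-morphine than with morphine was therefore not shown for any of the 3.

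The mean of both morphine groups was compared with saline last, and it shares its arrays with the comparisons above. Rpl41 (-0.22, adjusted p = 0.0311), Rpl13 (-0.22, adjusted p = 0.0349) and Rpsa (-0.15, adjusted p = 0.0432) were lower and no member was higher, against 4.59% of all genes called, 1.91% lower and 2.69% higher. Without adjustment 18 members had p under 0.05 (30.5%, against 19.1% of all genes), 16 of them lower (27.1%, against 8.99%) and 2 higher (3.39%, against 10.1%). Rps15 followed at -0.15 (adjusted p = 0.0638), with 6 of 6 non-saline arrays below 0. In no member did all 6 of these arrays lie below, or all above, every saline array, against 1.34% of all genes below and 1.95% above. In 11 of the 59 members all 6 non-saline arrays were below 0, against 8.6% of all genes. They were Rpl13, Rpl22, Rpl23, Rpl24, Rpl26, Rpl36, Rpl41, Rps2, Rps13, Rps15 and Rpsa. All 6 were above 0 in 2 of the 59 members, Rpl30 and Rpl3l, against 9.98% of all genes. The difference was negative in 44 of 59 members (74.6%), against 49.3% of all genes, and the median was -0.057, beside 0.00099 for all genes. None of the 3 members was called with quantile normalization, a trended and robust variance or mirrored saline arrays counted once. The count was 0 without butyrate-morphine array 1, morphine array 3 or saline array 1, 4, 5 or 6. It was 1 without butyrate-morphine array 2 or saline array 3, 5 without butyrate-morphine array 3, and 7 without morphine array 1. As above, the share of all genes called in those fits is not given.

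**Figure D3:**
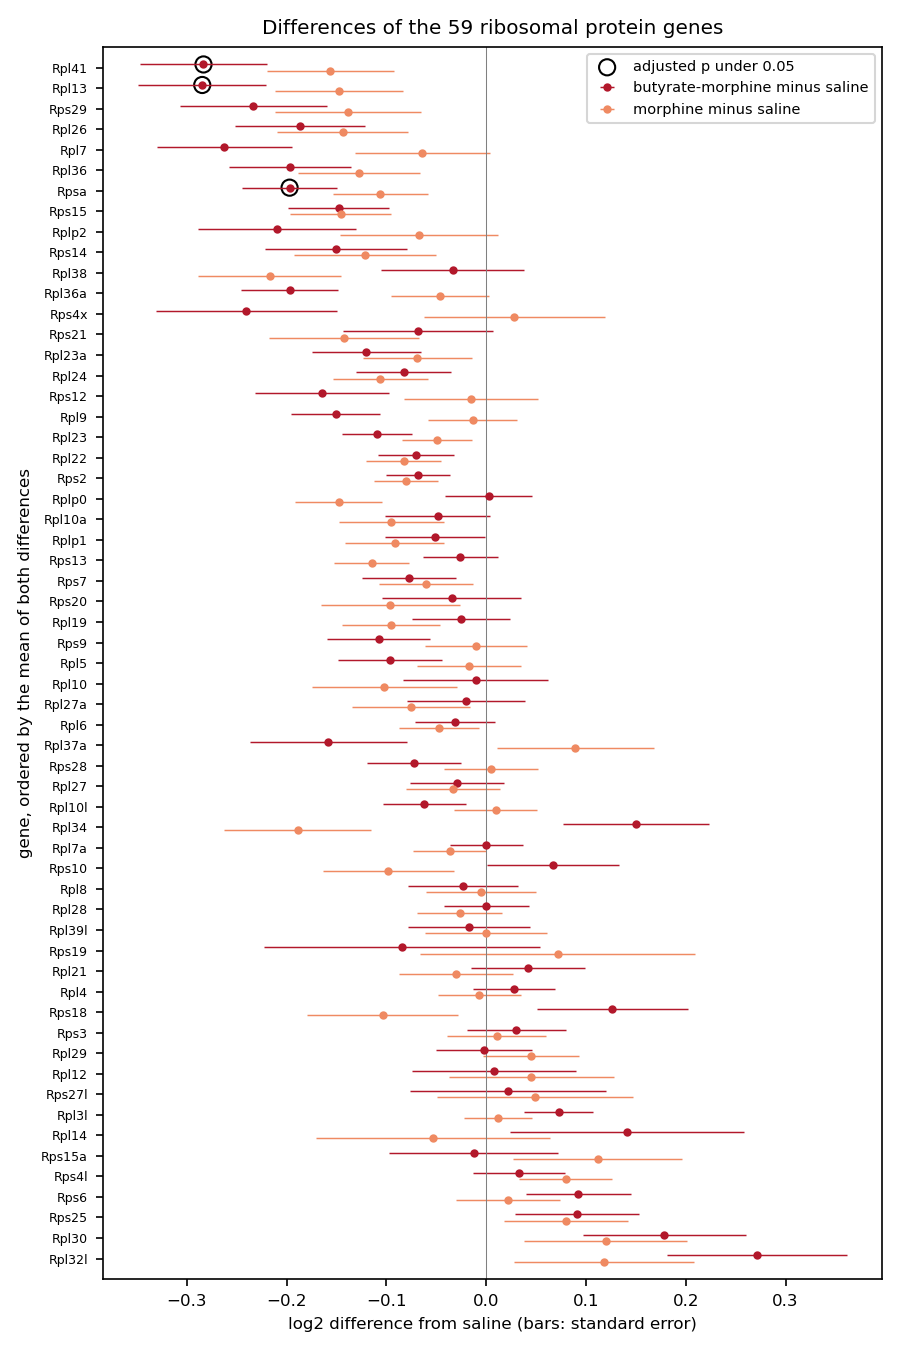
Fitted log2 differences from saline (horizontal axis) of the 59 ribosomal protein genes, ordered by the mean of both differences. Dark red points are butyrate-morphine minus saline, orange points morphine minus saline, bars are standard errors, and open circles mark an adjusted p under 0.05. Circles stand only on Rpl41, Rpl13 and Rpsa with butyrate-morphine, and more points lie left of 0 than right of it.

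Both subunits had medians of similar size in the mean of both groups against saline, -0.056 for the 37 large-subunit members and -0.062 for the 22 small-subunit members. With butyrate-morphine the medians were -0.032 for the large and -0.069 for the small subunit, and with morphine -0.049 for the large and -0.038 for the small subunit. The acidic stalk genes Rplp0, Rplp1 and Rplp2 stood at -0.073, -0.072 and -0.14 in the mean of both groups, and none passed the test. Within the stalk the groups differed: Rplp2 stood at -0.18, -0.24 and -0.21 in the butyrate-morphine arrays and at 0.14, -0.030 and -0.31 in the morphine arrays, with saline between -0.11 and 0.11. Its butyrate-morphine arrays were close together and its morphine arrays spanned both sides of the saline range (butyrate-morphine against morphine -0.14, adjusted p = 0.711).

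Of members other than Rpsa with known roles beyond the ribosome or in disease, Rps6, Rpl5, Rpl22 and Rps19 did not pass the test. Rps6, the target of S6 kinases, stood at 0.071, 0.16 and 0.043 in the butyrate-morphine arrays and at -0.13, 0.055 and 0.14 in the morphine arrays, and the saline arrays lay between -0.071 and 0.071 (both groups against saline 0.057, SE 0.043, adjusted p = 0.518). Rpl5, whose protein binds and restrains Mdm2 when ribosome assembly is disturbed, stood at -0.057 in the same comparison (adjusted p = 0.52). Rpl22, which mice need for normal T cell development, stood at -0.077 (adjusted p = 0.195). Rps19, the gene most often mutated in Diamond-Blackfan anaemia in humans, had saline arrays from -0.37 to 0.37 in its single probe set, wider than any difference between its groups. It stood at -0.022, -0.17 and -0.057 in the butyrate-morphine arrays and at 0.19, 0.11 and -0.084 in the morphine arrays.

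Paralogs and other members close to a parent gene lay on both sides of 0. Rpl3l, which replaces its parent in heart and skeletal muscle, stood at 0.042 in the mean of both groups (adjusted p = 0.459), and the testis paralogs Rpl10l and Rpl39l at -0.026 (adjusted p = 0.745) and -0.0089 (adjusted p = 0.951). Rps4l, which its symbol brings under the rule but RefSeq lists as a transcribed pseudogene, stood at 0.056 (adjusted p = 0.462) and Rps27l, a p53 target, at 0.036 (adjusted p = 0.866). Together with Rpl32l these 6 members had a median of 0.039. Rpl10, the parent of Rpl10l, stood at -0.056 (adjusted p = 0.672).

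The same pattern was visible in the single probe sets. With butyrate-morphine, 163 of the 214 member probe sets were negative (76.2%, against 46.0% of all probe sets), with a median of -0.066. When probe sets were tested as rows, 10 were lower and none was higher, against 0.592% of all probe sets called lower. They came from 4 genes: 5 of the 9 probe sets of Rpl13, all 3 of Rpl41, 1 of the 5 of Rpsa and 1 of the 2 of Rps14. Probe sets of a gene are not independent readings: those of Rpl41 differed by at most 0.0012 on any array, whereas those of Rpsa differed by up to 0.32. Of the 39 members with several probe sets, 27 had all of them negative, 5 all positive and 7 on both sides. In the mean of both groups these counts were 31, 3 and 5.

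The lower values lay mainly in the brighter, multiply measured members. In the mean of both groups against saline, the median was -0.072 in the 39 members with several probe sets, 34 of them negative, and 0.0021 in the 20 members with 1 probe set, 10 of them negative. The 998 genes with several probe sets had a median of 0.010. The 46 members with a probe set stored at 8 or more had a median of -0.069, and the 13 without one had 0.027. The 5029 genes with such a bright probe set had a median of 0.00035. Bright members had medians of -0.078, -0.073 and -0.025 on the butyrate-morphine arrays, -0.056, -0.050 and -0.054 on the morphine arrays and -0.037 to 0.037 on the saline arrays. All bright genes had medians of 0.028, 0.022 and 0.0014 on the butyrate-morphine arrays and 0.013, -0.047 and -0.0089 on the morphine arrays. On morphine array 2 the bright members and all bright genes thus had nearly the same median. The part of brightness in the result was not tested further.

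Gene lists around the ribosome were described in the same way. Of 77 mitochondrial ribosomal protein genes, 2 were lower and none was higher in the mean of both groups against saline, where 1.91% of all genes were lower and 2.69% higher, and the median of the list was -0.015. They were Mrps11 (-0.20, SE 0.036, adjusted p = 0.0074) and Mrpl54 (-0.16, adjusted p = 0.046). Of 17 elongation and other TOP translation factors, Eif3k, a subunit of initiation factor eIF3, was lower (-0.15, SE 0.041, adjusted p = 0.0497) and none was higher, with a median of -0.0015. Of 42 genes of ribosome biogenesis and RNA polymerase I, 1 was lower and 2 were higher, beside the same shares of all genes: Bop1, a large-subunit assembly factor, at -0.12, and Nop58, of the box C/D snoRNA complex, and Nop14, a small-subunit assembly factor, both at 0.15. Their median was 0.020.

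Of 23 genes of mTOR and S6 kinase control, 1 was lower and 2 were higher in the mean of both groups, against 1.91% and 2.69% of all genes. Ddit4, an inhibitor of mTOR complex 1 signalling that stress and glucocorticoids induce, averaged 0.40 ± 0.15 with butyrate-morphine, 0.54 ± 0.14 with morphine and 0 ± 0.052 with saline (SD, n = 3, 3 and 6). It rose in both groups (adjusted p = 0.007 with butyrate-morphine and 0.00075 with morphine). Sesn1, another inhibitor of that pathway, rose by 0.17 in the mean of both groups (adjusted p = 0.0073). Mycn, a transcription factor that drives ribosomal genes in other settings, fell by 0.25 (adjusted p = 0.0031). Whether these 3 genes bear on the ribosomal protein genes was not tested.

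**Figure D4:**
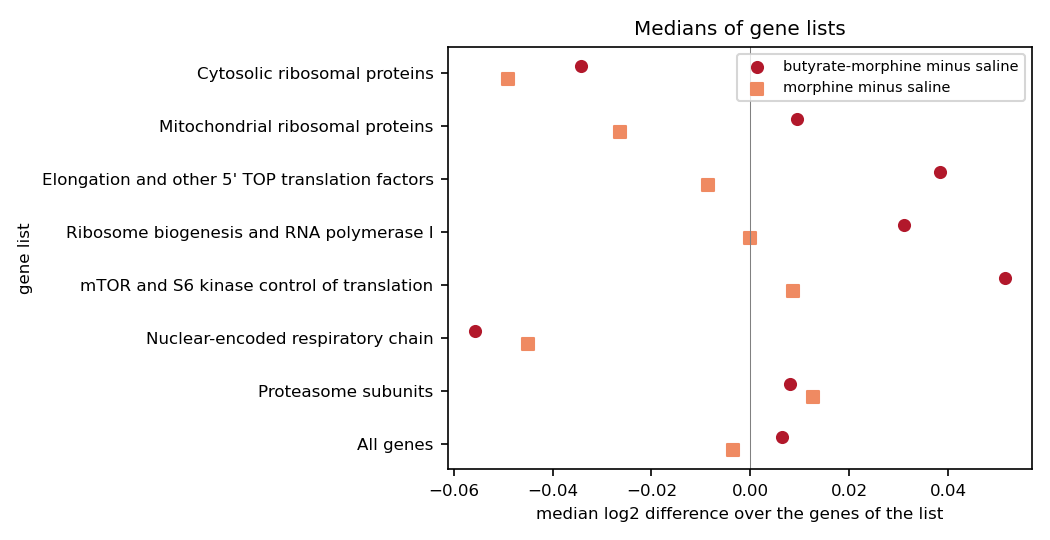
Median log2 difference from saline (horizontal axis) over the genes of each list (vertical axis), for butyrate-morphine (circles) and morphine (squares). Cytosolic ribosomal protein genes and the nuclear-encoded respiratory chain have negative medians in both comparisons, and mitochondrial ribosomal protein genes have 0.0094 with butyrate-morphine and -0.026 with morphine.

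The nuclear-encoded respiratory chain resembled the ribosomal protein genes in its medians. Of its 73 genes, 6 were lower and none was higher in the mean of both groups, against 1.91% and 2.69% of all genes. The difference was negative in 48 of them, against 49.3% of all genes, with a median of -0.047. Ndufb9, a subunit of complex I, fell by 0.19 (adjusted p = 0.0038), Atp5g1, of the ATP synthase ring, fell by 0.17 (adjusted p = 0.01), and Uqcr11, of complex III, fell by 0.24 (adjusted p = 0.021). The other 3 were Atp5j2, Cox6b1 and Ndufb7. The median was -0.056 with butyrate-morphine and -0.045 with morphine. None of the 39 proteasome subunit genes was called in the mean of both groups, and their median was 0.017. Psmb1 alone was lower with butyrate-morphine (-0.18, adjusted p = 0.045), where 0.637% of all genes were lower and 1.85% higher. Of 2 measured snoRNA host genes, Snhg5, which also carries a TOP tract, was higher with butyrate-morphine (0.23, adjusted p = 0.04) and at 0.056 with morphine (adjusted p = 0.71). Of the ribosomal protein genes that the symbol rule leaves out, Fau, whose product is cleaved into a small-subunit protein, stood at -0.22 ± 0.022 with butyrate-morphine, -0.030 ± 0.22 with morphine and 0 ± 0.059 with saline (butyrate-morphine against saline adjusted p = 0.13).

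Markers of cell types moved between the groups as well. All 9 choroid plexus markers were higher in the mean of both groups, with a median of 0.79. In that comparison, used for all counts of called markers below, 1.91% of all genes were lower and 2.69% higher. Summed over the 9 markers, the log2 differences ran from 7.89 to 10.4 on the butyrate-morphine arrays, 10.8 to 12.8 on the morphine arrays and -1.14 to 1.14 on the saline arrays. Of 9 endothelial markers 4 were lower, with sums of -2.18 to -1.32 with butyrate-morphine, -2.75 to -2.07 with morphine and -0.50 to 0.50 with saline. Of 8 microglial markers 3 were lower, with sums of -1.78 to -1.31 with butyrate-morphine, -2.13 to -1.42 with morphine and -0.62 to 0.62 with saline. Of 8 striatal projection neuron markers, 1 was lower in the mean of both groups, with sums of -0.23 to 0.26 with butyrate-morphine, -1.17 to -0.84 with morphine and -0.44 to 0.44 with saline.

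Of 7 thalamic and septal markers 3 were higher in the mean of both groups, against 2.69% of all genes. Their sums ran from -0.46 to 3.49 with butyrate-morphine, 0.69 to 5.00 with morphine and -0.32 to 0.32 with saline. Of 8 astrocyte markers 1 was higher, and of 6 oligodendrocyte markers none was called. None of 5 cortical excitatory neuron markers was called. Their sums ran from -0.76 to 0.20 with butyrate-morphine, -3.64 to 0.38 with morphine and -0.42 to 0.42 with saline. All 5 were negative with morphine against saline (median -0.41), and 4 with butyrate-morphine (median -0.056). Their median was -0.97 on morphine array 2, beside 0.0060 and -0.30 on morphine arrays 1 and 3. The values are centred, so no marker can be called present or absent from them, and the striatal label could not be checked by level. The part of these cell types in the values of the ribosomal protein genes was not tested.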

How the data were processed

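Striatal RNA pools were hybridised to Affymetrix Mouse Gene 1.0 ST arrays, per the labels' protocols. The authors deposited 1 table of 28815 rows of centred values, here read as log2. The sources used here name no background correction, normalization or log base. The rows were named from the platform annotation: 21780 had 1 gene symbol, 1605 several and 5430 none. All 59 members matched RefSeq (GRCm38.p6) by Entrez ID and 0 symbols changed. Of the genes the rule would take, 16 lay solely in rows of several symbols and were left out, with 233 rows in all.

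Probe sets of a gene were averaged, and 19935 genes were fitted with limma 3.58.1 in R 4.3.3 (lmFit and eBayes, 3 group means, 12 arrays, 1 shared spread, 9 residual degrees of freedom). P-values are two-sided and Benjamini-Hochberg adjusted over all genes, with a threshold of 0.05. This fit counts the 6 mirrored saline arrays as 6 separate values. Its 9 residual degrees of freedom are therefore too many, its saline spread is too small and its p-values are too low. With each mirrored pair counted once, 0 members were called in any of the comparisons. The procedure was also run on simulated data with mirrored saline pairs, for the mean of both groups against saline only. Its outcome is not given here and is not used as support for any call. The simulation gave each treated array the baseline of a saline pair, which is not known to hold for these data. The number of arrays limits the precision.

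Named members are, per comparison, those past the threshold or, with fewer than 5, the 10 lowest p, plus a fixed set of members with known roles and paralogs, and from each other list up to 6 called genes or else the 2 lowest p. Other members given by value, among them Rps18, Rplp2, the extreme values of morphine array 1 and the probe sets of Rps14, were chosen after their values were seen. Members and lists were chosen with earlier results of these data known. Alternatives were probe sets as rows, median centring, quantile normalization, a trended robust variance, mirrored saline pairs counted once, bright probe sets alone, a replicate block and each array left out. The fit of all rows with shared rows was chosen after seeing the data.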

Additional observations from a re-analysis of the deposited data

How the results depend on the processing

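For members named by the rule, 938 values under the alternatives kept their direction and side of the threshold, 14 passed it anew, 70 no longer passed it and 12 reversed. Most of the 938 belong to members that were not called to begin with. Only Rpl41, Rpl13 and Rpsa could lose a call, and the 70 are all theirs. Of 12 fits without one array, Rpl41 was called in 5, and Rpl13 and Rpsa in 4 each. These counts were the same with butyrate-morphine and with both groups against saline. With butyrate-morphine against saline they include the fits without a morphine array, which leave that difference unchanged. Apart from those fits, Rpl41 was called there only without butyrate-morphine array 3 or saline array 3. Rpl13 and Rpsa were called there only without saline array 2. With butyrate-morphine against saline, 3 members were called. The count was 0 with quantile normalization, with a trended and robust variance and with each mirrored saline pair counted once, 5 among bright probe sets, and 0 to 5 without one array. With probe sets as rows the median was -0.066, taken over the 214 member probe sets and not over members. With morphine against saline, the median over members without one array ran from -0.065 to -0.019. With both groups against saline, 3 members were called. The count was 0 with quantile normalization, with the trended and robust variance and with mirrored pairs counted once, and 0 to 7 without one array. In a fit of all rows, chosen after seeing the data, 5 members were called with butyrate-morphine, 2 with morphine and 7 with both groups. These 3 counts include rows shared with other symbols and are out of 75 genes. In that fit 1.77%, 1.76% and 3.47% of all rows were called, counted per row and not per gene. Shares of all genes called under the other alternatives are not given here, so counts under them cannot be set against all genes.

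The labels do not say that replicate numbers pair the arrays. Deviations of arrays with the same number correlated between -0.27 and 0.20, and those with different numbers between -0.27 and 0.28. Against a saline array the sign depends on which array of the mirrored pair is taken. These correlations therefore cannot settle whether the arrays were paired. With the replicate block, 0 members were called with butyrate-morphine and 0 with both groups. In the block, the differences of both groups reversed for Rps19 (0.074), Rpl10l (0.0046) and Rps27l (-0.054). Without one array, Rps19 ran from -0.079 to 0.067, Rpl39l from -0.049 to 0.031, Rps27l from -0.018 to 0.090 and Rpl10 from -0.091 to 0.0035. None of these 5 genes passed the test. The cause of these moves was not tested.

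Limits are the 3 arrays per treated group, the mirrored saline arrays, which leave 3 independent saline values, the unstated normalization, and centring, which removed all levels. A fit without 1 saline array keeps that array's mirror image.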

Other observations

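Rows that name a member together with another symbol were left out of the comparisons and are given here as values. There were 233 such rows for 34 genes, 16 of which had no row of their own. With morphine against saline 202 of the 233 rows were negative (86.7%, against 51.1% of all rows), with a median of -0.061. Of the 233, 6 were called lower and none higher, against 1.76% of all rows called in either direction. With butyrate-morphine 156 were negative (67.0%, against 45.7%), with a median of -0.052. Here 3 were called lower and none higher, against 1.77% of all rows in either direction. With both groups 10 were called lower and none higher, against 3.47% of all rows in either direction. The median over these rows was -0.034, -0.070 and -0.031 on the butyrate-morphine arrays, -0.13, -0.055 and -0.057 on the morphine arrays and between -0.025 and 0.025 on the saline arrays. Morphine array 1 had the lowest of these medians. Among the 16 genes, the 9 rows of Rpl31, which encodes a protein near the exit of the peptide tunnel, had medians of -0.16 with butyrate-morphine, -0.23 with morphine and -0.20 with both groups, with a lowest adjusted p of 0.0141 in the last. The 4 rows of Rpl13a, whose protein also silences inflammatory mRNAs, had medians of -0.11 with butyrate-morphine and -0.15 with morphine, with a lowest adjusted p of 0.0694 with morphine. The 6 rows of Rpl11, the partner of Rpl5 in restraining Mdm2, had medians of -0.24 with butyrate-morphine and 0.026 with morphine (lowest adjusted p of 0.242 with butyrate-morphine). A row that several genes share cannot be assigned to one of them, and these genes were named after their values were seen.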
